A study of Mus musculus with 2 samples.

Results

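The genes for p53 and for 8 proteins of its pathway were followed in primed mEpiSCs treated to return them to a naive state. The 9 genes, Trp53, Mdm2, Cdkn1a, Cdkn2a, Ccng1, Bax, Bbc3, Phlda3 and Sesn2, were chosen by symbol among the 33963 genes of the count table, and all 9 had reads in every population. Single cells of 5 populations had been labelled with tags bound to antibodies against CD9 and CD63, pooled in 1 tube, and captured with BD Rhapsody, and their cDNA was amplified by TAS-Seq, which reads transcripts of all genes. Naive cells were mESCs with a Rex1-GFP reporter kept on gelatin with 2iL, a medium of 2 kinase inhibitors and LIF. Primed cells were Oct4GIP mEpiSCs, which carry an Oct4 reporter, on MEF feeders (mouse embryonic fibroblasts) with FGF2 and activin A. The d8 and d16 populations were the primed cells after 8 and 16 days with AICAR, an activator of the energy sensor AMPK, and LIF, again over feeders. The d16+10p population had been grown on from d16 for 10 passages in 2iL. The reporter lines are given as 129/Ola, and each population was 1 tagged sample of 1 library, so no difference below has a replicate check and no test was made.

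The transcription factor p53 is made at all times and is kept low by the ubiquitin ligase Mdm2. When DNA is damaged, or when growth signals raise the Arf protein of the Cdkn2a gene, p53 escapes Mdm2, accumulates and switches on target genes that halt the cell cycle, repair DNA or start apoptosis. Mdm2 is itself a target, which closes a feedback loop. Because p53 is set mainly by protein turnover, its mRNA and the mRNAs of its targets need not move together. In pluripotent cells p53 is known as a barrier to reprogramming and as a guard of genome integrity, and AMPK is among the kinases known to phosphorylate it.

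The p53 response element, a pair of adjoining 10-base units that is its own reverse complement, was looked for in RefSeq promoter windows (GRCm38.p6) from 250 bases before to 50 bases after each start. All 9 genes matched by symbol, with 13 windows. The promoters of Cdkn1a and Ccng1 are shown because these windows came closest to the element, each with 1 mismatch, and because both genes had like courses below. Capitals mark the element, and the strand is that of the gene. The Cdkn1a stretch is chr17:29090729-29090948 on the plus strand and the Ccng1 stretch chr11:40755317-40755536 on the minus strand.

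Cdkn1a: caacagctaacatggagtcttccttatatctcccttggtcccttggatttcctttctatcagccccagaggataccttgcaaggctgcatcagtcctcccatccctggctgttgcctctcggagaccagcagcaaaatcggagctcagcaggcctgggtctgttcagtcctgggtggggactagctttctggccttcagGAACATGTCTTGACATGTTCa
Ccng1: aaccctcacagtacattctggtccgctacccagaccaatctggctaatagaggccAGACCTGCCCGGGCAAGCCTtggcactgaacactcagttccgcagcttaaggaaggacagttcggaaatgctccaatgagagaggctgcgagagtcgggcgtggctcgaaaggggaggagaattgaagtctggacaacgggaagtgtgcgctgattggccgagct

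At most 1 mismatch was found in 29 of 32851 windows (0.0883%), and at most 3 in 6.29%. Windows of Trp53, Bax and Bbc3 held their best match with 3 mismatches, shown next with capitals for the bases that match and lower case for those that do not.

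Trp53: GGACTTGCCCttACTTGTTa
Bax: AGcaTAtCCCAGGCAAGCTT
Bbc3: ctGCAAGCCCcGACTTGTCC

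These 3 sites lie at chr11:69580284-69580303, chr7:45467090-45467109 and chr7:16309486-16309505. In the windows of Mdm2, Cdkn2a, Phlda3 and Sesn2 the best match had 5 or 6 mismatches, and the median over all windows was 5. A match describes letters only, and elements in introns, such as those known for Mdm2, lie outside the windows.

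The table held 17720 cells with 307121033 reads: 1826 primed, 9627 d8, 4315 d16, 1151 d16+10p and 801 naive cells. The tag list gives 500 naive, 500 primed, 9000 d8, 9000 d16 and 1000 d16+10p as loaded, so the naive and primed tags were read on more cells than were loaded. No cell barcode stood under more than 1 tag. Median reads per cell ran from 10185 in d16 to 21551 in d16+10p. Clustering gave 18 clusters, 4 of them high in Pou5f1 (Oct4), and every tag also had cells outside these 4, among them 237 naive and 1350 primed cells. Cells of a tag in the 4 Pou5f1-high clusters are called its core: 564 naive, 476 primed and 934 d16+10p cells. Only 34 d8 cells lay there, so d8 was taken whole. The d16 cells were split at 1000 Dppa5a reads per 1000000 reads of the cell, Dppa5a being a pluripotency gene, into 1278 Dppa5a-high cells, of which 1208 were in the core, and 3037 Dppa5a-low cells. Dppa5a stood at 2776 CPM in the naive core, 308 in the primed core and 2992 in the d16+10p core. Near the limit, between 500 and 2000, were 6.84% of d16 cells. Levels are summed counts of a gene in a group per 1000000 reads (CPM), and in such a sum fewer cells with a gene and less of its RNA per cell cannot be told apart. Brackets give 95% exact Poisson intervals for levels, exact binomial intervals for shares of cells and, for log2 ratios (pseudocount 1 CPM), intervals from the exact binomial interval. All cover counting error only and, since reads are not molecules, are too narrow. Free RNA was measured with Lyz2, a macrophage gene, which stood at 26408 CPM in macrophage-like cluster 8 and at 196 CPM in naive cluster 11, or 10.9% of its level over all cells. Tyrobp, another macrophage gene, stood at 20.1% in cluster 11 and at 17.5% in its lowest cluster. For 8 of the 9 genes the lowest cluster still held at least 38.4% of the level over all cells. Cdkn2a held 21.1% in its lowest, primed cluster 12, near the shares of Tyrobp. How much of this low Cdkn2a level was free RNA was not tested.

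Among the 6 groups plotted, Mdm2, Cdkn1a, Ccng1 and Phlda3 were highest at d8. They were lower in the d16 Dppa5a-high cells and closer to the naive core level after 10 passages. Trp53 and Bax were lower at d8 than in these later cells. Over whole tags, 6 of the 9 genes were highest in d8: Mdm2, Cdkn1a, Cdkn2a, Ccng1, Bbc3 and Phlda3, with Bbc3 at 38.4 CPM beside 37.0 in primed, within counting error. Trp53, Bax and Sesn2 were highest in d16+10p. The plot of levels by population shows these courses.

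**Figure D1:**
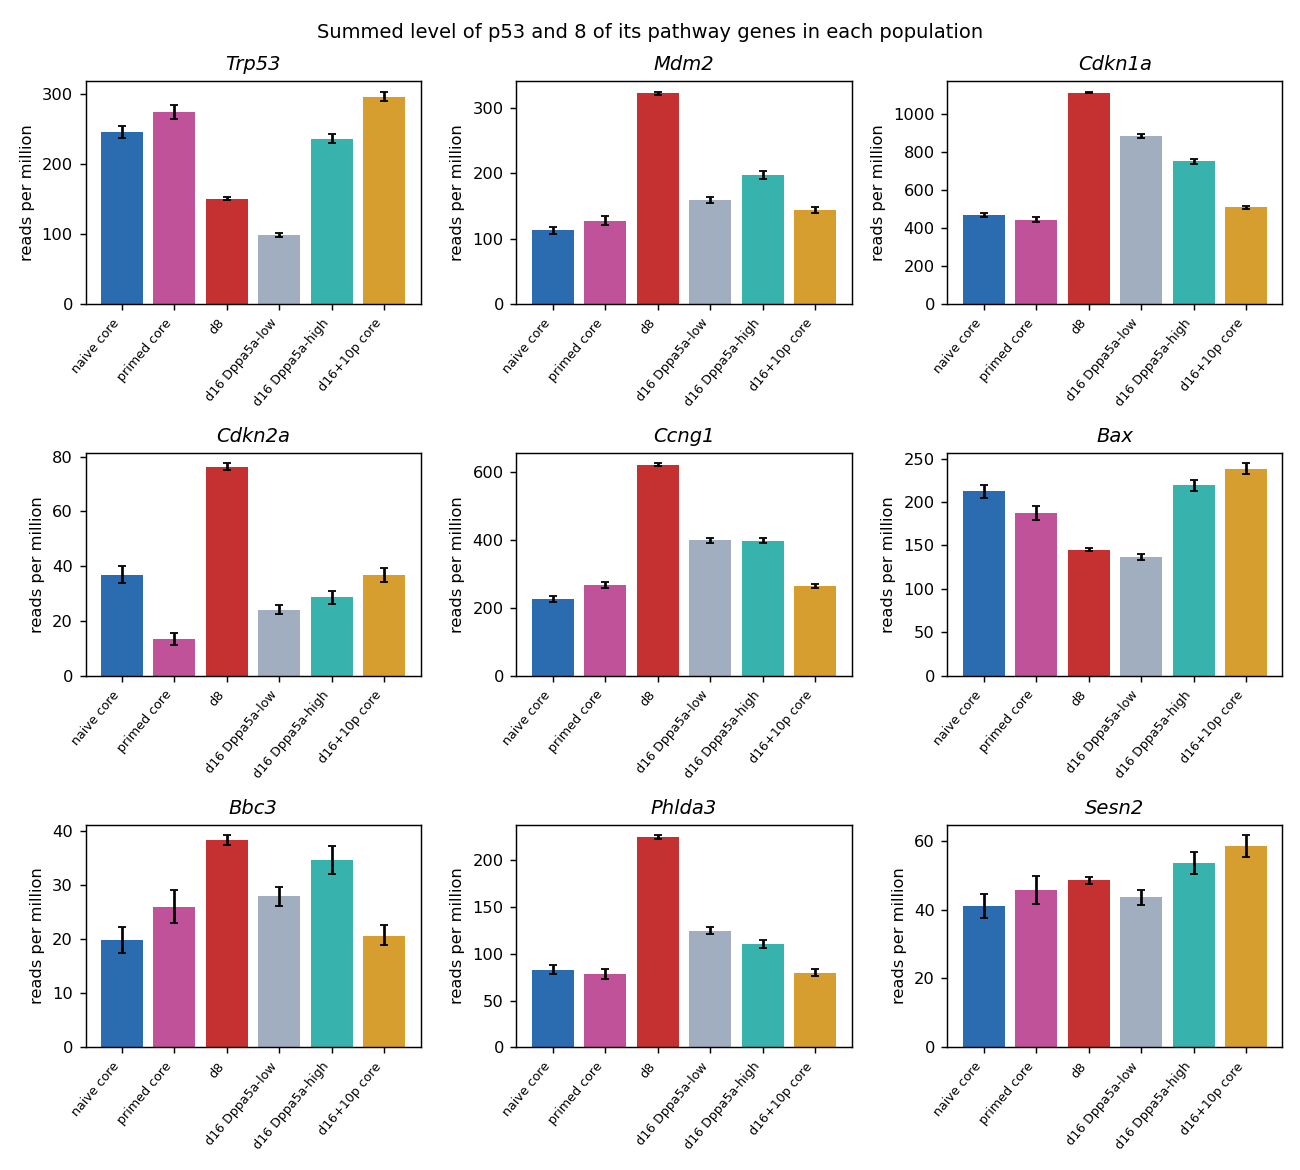
Summed level of each gene (y axis, CPM, from 0) in 6 groups of cells (x axis). Bars are sums over all cells of a group and whiskers are 95% exact Poisson intervals. Mdm2, Cdkn1a, Ccng1 and Phlda3 peak at d8, at 322, 1110, 620 and 224, while Trp53 is lowest in d16 Dppa5a-low cells, at 98.5.

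Trp53 encodes p53 itself (chr11:69580359-69591873, plus strand). Its level was 246 CPM [238-254] in the naive core, 275 [266-285] in the primed core, 151 [149-152] in d8, 98.5 [95.3-102] in d16 Dppa5a-low, 236 [230-243] in d16 Dppa5a-high and 297 [290-304] in the d16+10p core. The 4 pluripotent groups were thus all above d8 and d16 Dppa5a-low cells. After thinning every cell to 5000 reads, a Trp53 read was found in 70.5% of primed core cells, 46.2% of d8 cells, 30.9% of d16 Dppa5a-low cells and 60.9% of d16 Dppa5a-high cells (92.0%, 71.3%, 45.4% and 82.8% unthinned). Thinning left out 12, 755, 564 and 40 shallower cells of these groups. The processed pseudogene Trp53-ps, which could share reads with it, had 0 to 6 reads in any population.

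Mdm2, the ligase that marks p53 for destruction (chr10:117688875-117710758, minus strand), had 112 CPM [107-118] in the naive core and 127 [120-134] in the primed core. It stood at 322 [320-325] in d8, 159 [155-163] in d16 Dppa5a-low, 197 [192-204] in d16 Dppa5a-high and 144 [139-149] in the d16+10p core. Its order was therefore d8, then both d16 groups, then the d16+10p, primed and naive cores. A read was found in 65.4% of thinned d8 cells (83.7% unthinned) and in 42.9% of thinned primed core cells (80.5%).

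Cdkn1a encodes p21, the CDK inhibitor through which p53 stops the cell cycle (chr17:29090976-29100727, plus strand). It had 466 CPM [455-478] in the naive core, 442 [429-454] in the primed core, 1110 [1105-1115] in d8, 881 [871-891] in d16 Dppa5a-low, 749 [737-760] in d16 Dppa5a-high and 507 [498-516] in the d16+10p core. The d16 Dppa5a-high cells were between d8 and the 3 other pluripotent groups. Nearly every cell had a read, 95.5% in d8 and 83.2% in the primed core after thinning (97.8% and 98.3% unthinned).

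Cdkn2a, on chr4:89274471-89294653 (minus strand), encodes the CDK inhibitor p16Ink4a and, from another start and reading frame, p19Arf, which blocks Mdm2. Reads were added up per symbol, so the 2 products could not be told apart. The level was 36.9 CPM [33.8-40.2] in the naive core, 13.3 [11.2-15.6] in the primed core, 76.2 [74.97-77.5] in d8, 24.0 [22.4-25.7] in d16 Dppa5a-low, 28.6 [26.3-31.0] in d16 Dppa5a-high and 36.7 [34.3-39.3] in the d16+10p core. The primed core was the lowest of the 6 groups, and the naive and d16+10p cores lay within each other's intervals. In d8, cluster 0 gave 58.7% of Cdkn2a reads from 22.5% of the cells.

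Ccng1 encodes cyclin G1, which recruits a phosphatase to Mdm2 (chr11:40748552-40755311, minus strand). It had 225 CPM [217-233] in the naive core, 266 [256-276] in the primed core, 620 [616-624] in d8, 397 in both d16 groups [391-404 and 389-406] and 263 [257-270] in the d16+10p core. Phlda3, which holds back the kinase Akt at the membrane (chr1:135766119-135769136, plus strand), had 83.1 [78.4-88.0], 78.7 [73.5-84.2], 224 [222-227], 125 [121-128], 111 [106-115] and 80.0 [76.4-83.7] CPM in the naive core, primed core, d8, d16 Dppa5a-low, d16 Dppa5a-high and d16+10p core. Both genes thus shared the course of Mdm2 and Cdkn1a from the primed core through d8 to d16+10p. A Phlda3 read was found in 57.1% of thinned d8 cells and 28.2% of primed core cells (78.6% and 60.3% unthinned).

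The 2 apoptosis genes differed from each other. Bax, which opens the mitochondrial outer membrane (chr7:45461697-45466898, minus strand), had 212 CPM [205-220] in the naive core, 187 [179-196] in the primed core, 145 [143-147] in d8, 136 [133-140] in d16 Dppa5a-low, 219 [213-226] in d16 Dppa5a-high and 238 [232-244] in the d16+10p core. It was high in the pluripotent groups and low in the others, as Trp53 was. Bbc3 encodes Puma, which frees Bax from its inhibitors (chr7:16308393-16318205, plus strand). Its level was 19.8 [17.6-22.3], 25.9 [23.0-29.1], 38.4 [37.5-39.3], 28.0 [26.2-29.8], 34.7 [32.2-37.3] and 20.7 [18.9-22.6] CPM in that order, highest in d8 and d16 Dppa5a-high cells. Sesn2, a stress gene whose product lowers mTORC1 activity in part through AMPK (chr4:132492032-132510501, minus strand), varied least, from 40.9 CPM [37.6-44.4] in the naive core to 58.4 [55.3-61.6] in the d16+10p core, with d8 at 48.4 [47.4-49.5].

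Before treatment, the primed core stood close to the naive core except in Cdkn2a. Cdkn2a was lower in primed cells, with a log2 ratio of -1.41 [-1.75 to -1.20], and the other 8 genes were between -0.18 (Bax) and 0.37 (Bbc3). Ccng1 was at 0.24, Mdm2 at 0.17, Trp53 at 0.16, Sesn2 at 0.15, and Cdkn1a and Phlda3 at -0.08. The median of the 9 was 0.15, beside 0.02 over all genes tested, which had to reach 10 CPM in one group or the other and 30 reads in all. Past 2-fold were 0 of 9 genes higher and 1 lower, where 4.25% of all such genes were higher and 6.65% lower. Among 33 measured genes of a wider list of p53 targets, 1 was past 2-fold higher, Ccnd2, and 3 lower, Gdf15, Tigar and Dusp14, which stood at 1.75, 15.2 and 6.74 CPM in the primed core and 10.7, 57.4 and 24.5 CPM in the naive core.

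At d8 Mdm2, Cdkn1a, Ccng1 and Phlda3 stood at 2.33 to 2.85 times the primed core, Cdkn2a at 5.74 times, and Trp53 stood below it. The log2 ratio was 1.34 [1.27-1.42] for Mdm2, 1.33 [1.29-1.37] for Cdkn1a, 1.22 [1.17-1.28] for Ccng1, 1.499 [1.41-1.61] for Phlda3 and 2.43 [2.28-2.77] for Cdkn2a. Bbc3 was at 0.55, Sesn2 at 0.09 [-0.04 to 0.22], Bax at -0.37 and Trp53 at -0.87 [-0.92 to -0.81]. The median was 1.22, beside 0.10 for all genes. Past 2-fold were 5 of 9 genes higher and 0 lower, against 13.7% and 8.62% of all genes. These 5 lay between the 90.3 and 99.0 percentiles of all genes.

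The wider lists were read in the same comparison. Of 33 measured further targets of p53, 14 were past 2-fold higher and 1 lower, with a median of 0.86. Highest were Pmaip1, which encodes the apoptosis protein Noxa (2.27), the membrane protein gene Perp (1.75) and the kinase gene Plk2 (1.68), while Rrm2b, a subunit of ribonucleotide reductase, was at -1.37. Of 6 measured CDK inhibitors 4 were past 2-fold higher, among them Cdkn2b at 2.31 and Cdkn1c at 1.60. The others were Cdkn1a and Cdkn2a, already counted among the 9. All 12 proliferation genes were lower, 11 of them past 2-fold, with Ccna2 at -1.80, Plk1 at -1.76 and Ccnb2 at -1.61. Of 20 regulators of p53 none was past 2-fold higher and 2 were lower, Chek1 at -1.45 and Aurka at -1.33. In the BCL2 family 5 of 14 were past 2-fold higher, led by Bcl2a1b (2.40), whose reads may be shared with near-identical copies, and Pmaip1, with Bmf, an activator of apoptosis, at 1.36. This list also holds Bax and Bbc3 of the 9, neither of them past 2-fold, and Pmaip1 is counted among the further targets too. Sesn3, another sestrin, was at 1.19.

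Markers of other cell types differed with d8, and their part in the ratios was measured only as follows. The 7 macrophage markers summed to 2961 CPM in d8 and 263 in the primed core, the 7 fibroblast markers to 1517 and 456, the 6 epithelial markers to 2633 and 570 and the 6 smooth muscle markers to 1031 and 215. Every marker was at 1 CPM or more in both groups, except 1 of smooth muscle in the primed core. Without clusters 0 and 6, the highest for fibroblast markers, and cluster 8, the highest for macrophage markers, d8 stood at 351 CPM for Mdm2, 1237 for Cdkn1a, 634 for Ccng1 and 249 for Phlda3, all higher than with them, and at 39.6 for Cdkn2a, which was lower. Without clusters 1 and 4, the highest for epithelial and for smooth muscle markers, d8 stood at 295 for Mdm2, 951.7 for Cdkn1a, 604 for Ccng1 and 194 for Phlda3, all lower than with them but above the primed core, and at 96.2 for Cdkn2a.

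Against all primed-tagged cells, most of which lay outside the core, d8 differed less. The median was 0.56, beside -0.02 for all genes, and 1 of 9 genes was past 2-fold higher (Cdkn2a) and 0 lower, against 3.53% and 3.27% of all genes. Mdm2 had 206 CPM in all primed cells, Cdkn1a 753, Ccng1 417 and Phlda3 139, giving ratios of 0.65, 0.56, 0.57 and 0.69 at d8. Cdkn2a was at 1.46, Trp53 at -0.47, Bax at -0.17, Bbc3 at 0.05 and Sesn2 at 0.03. The wider lists also differed less: 1 of 34 further targets was past 2-fold higher, Pmaip1, with a median of 0.23. So were 3 of 6 CDK inhibitors, Cdkn2a among them, and 2 of 13 genes of the BCL2 family, Pmaip1 among them. Past 2-fold lower were 7 of 12 proliferation genes.

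Within clusters the difference was smaller again. In 10 clusters with at least 40 cells of each tag, the median log2 ratio of d8 to primed was 0.21 for Mdm2, 0.17 for Cdkn1a, 0.18 for Ccng1 and 0.19 for Phlda3, and -0.07 for Trp53. For each of these 4 targets d8 cells were above primed cells in 8 of the 10 clusters, and the interval lay above 0 in 6, 7, 5 and 5 of them. It lay below 0 in 1 cluster for Cdkn1a. The median over all genes tested ran from -0.09 to 0.04 in these clusters. How many of all genes had an interval above 0 was not counted, so these counts have no share beside them. In epithelial-like cluster 1, Cdkn1a had 1191 CPM in 2033 d8 cells and 1022 in 160 primed cells. In cluster 2, led by Lefty1 and Lefty2, it had 1143 in 1439 d8 cells and 888 in 428 primed cells. Over all 10 clusters the log2 ratio of Cdkn1a ran from -0.29 to 0.48. Its level over all tags ran from 822 CPM in cluster 3 to 1491 in cluster 4 between these same clusters. In cells outside the core Ccng1 stood at 513 CPM under the primed, 508 under the naive, 482 under the d16+10p and 394 under the d16 tag, beside 620 in d8. Mdm2 in such cells stood at 349 CPM [328-369] under the naive tag, above the 322 [320-325] of d8. It was at 256 under the primed, 269 under the d16+10p and 160 under the d16 tag. Bbc3 and Sesn2 under the naive tag, at 53.5 and 58.2, were also above d8, at 38.4 and 48.4. Cdkn1a and Phlda3 were below d8 under each of these tags. Whether these cells carried the right tag was not tested.

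**Figure D2:**
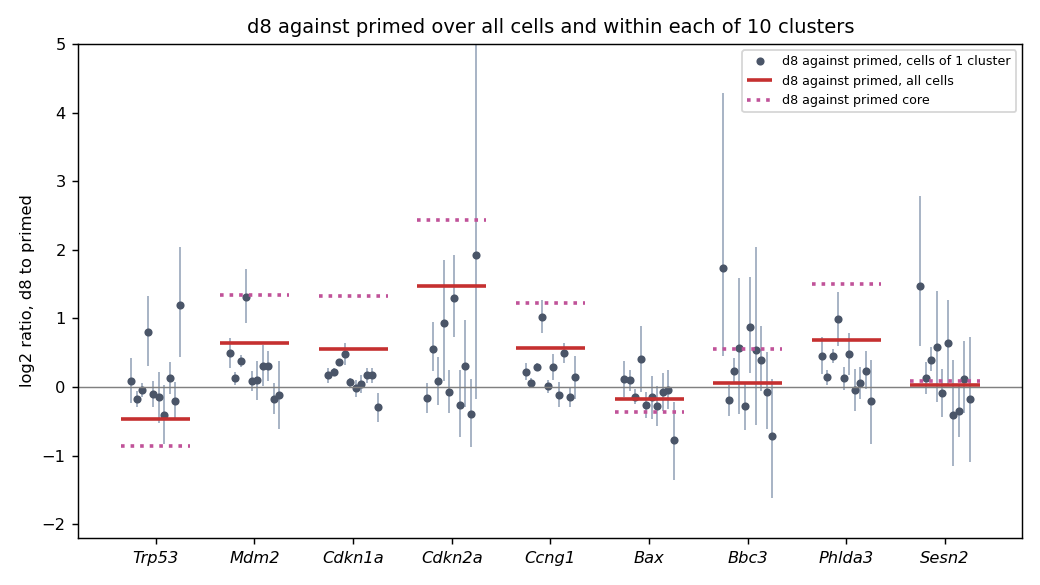
Log2 ratio of d8 to primed (y axis) for each gene (x axis). Grey points are single clusters with at least 40 cells of each tag and 95% counting intervals, red lines are all cells of both tags, dotted lines are d8 against the primed core, and 1 interval of Cdkn2a runs past the axis. For Mdm2, Cdkn1a, Ccng1 and Phlda3 most points lie between 0 and the red lines, which are at 0.65, 0.56, 0.57 and 0.69.

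At d16 the Dppa5a-high cells differed from the rest of their tag most in Trp53 among the 9 genes. It was past 2-fold higher, at 1.25 [1.20-1.33], and Bax was at 0.68 [0.63-0.74], while Ccng1 differed by less than counting error [-0.04 to 0.04] and Cdkn1a was lower at -0.23 [-0.26 to -0.21]. Mdm2 was at 0.31, Bbc3 at 0.30, Sesn2 at 0.29, Cdkn2a at 0.24 and Phlda3 at -0.17. The Dppa5a-low cells held other cell types, with fibroblast markers at 3533 CPM beside 538 in Dppa5a-high cells, macrophage markers at 948 beside 281 and neural markers at 721 beside 155, and the part of these cells in the ratios was not tested. The median was 0.29, beside -0.03 for all genes, with 1 of 9 genes past 2-fold higher and 0 lower against 11.3% and 16.6%. Along the Dppa5a level, Trp53 went from 96.3 CPM in 2675 cells under 250 CPM of Dppa5a, through 143 in 111 cells from 500 to 1000, to 240 in 1094 cells at 2000 or more, and Cdkn1a from 879 through 917 to 723. All 12 proliferation genes were higher in Dppa5a-high cells, 10 past 2-fold, with Ccnb1 at 1.83. Among 20 regulators of p53, Chek1 (2.15), Usp7 (1.47) and Aurka (1.18) were past 2-fold higher. Of 34 measured further targets 3 were past 2-fold higher (Tigar, Abcb1b and Pmaip1) and 4 lower (Cd82, Btg2, Ccnd2 and Fas).

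Against the primed core, Dppa5a-high cells were higher in 8 of the 9 genes beyond counting error, as 41% of all genes were, with Cdkn1a at 0.76 [0.71-0.81], Mdm2 at 0.63 [0.55-0.73] and Ccng1 at 0.58 [0.52-0.64], and Trp53 was below at -0.22 [-0.29 to -0.15]. Phlda3 was at 0.49, Bbc3 at 0.41, and Bax and Sesn2 at 0.23. The median was 0.49, beside 0.07 for all genes, and with all primed-tagged cells in place of the core it was -0.0077. Past 2-fold were 1 of 9 higher, Cdkn2a at 1.05 [0.84-1.38], and 0 lower, against 8.08% and 3.14%, and with a pseudocount of 10 CPM 0 were. In the wider list of targets 29 of 33 were above 0, beside 56.3% of all genes, and 3 were past 2-fold higher, led by Pmaip1 at 1.85, while Ccnd2 was lower at -1.75. Of 20 regulators of p53, 2 were past 2-fold higher and 0 lower. They were Prkaa2, which encodes a catalytic subunit of AMPK, at 1.33 [1.09-1.86], and Mdm4, the partner of Mdm2, at 1.15. Prkaa2 was low in both groups, at 17.3 CPM in Dppa5a-high cells and 6.27 in the primed core. This comparison shares the primed core with that of d8. TMM, another scaling, lowered the ratios of Dppa5a-high cells to the primed core by 0.13, which brought the median of all genes to -0.06 and changed the sign of none of the 9.

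After 10 passages in 2iL the levels lay near those of naive mESCs. Of the 9 genes 0 were past 2-fold higher and 0 lower, against 1.03% and 1.03% of all genes, and the median was 0.16 beside 0.02. Beyond counting error, 6 of the 9 were higher than in the naive core, as 29.5% of all genes were, most of all Sesn2 at 0.50 [0.37-0.66] and Mdm2 at 0.35 [0.27-0.44], and Cdkn2a was at -0.01 [-0.17 to 0.15]. Trp53 was at 0.27, Ccng1 at 0.22, Bax at 0.16, Cdkn1a at 0.12, Bbc3 at 0.06 and Phlda3 at -0.06. Of 34 measured further targets 23 were above 0, beside 53.7% of all genes, and none of them and none of 20 regulators was past 2-fold in either direction. In the BCL2 family 2 of 11 measured genes were past 2-fold lower and 0 higher. They were Bok, at 3.84 CPM beside 10.5 in the naive core, and Bid, at 22.9 CPM beside 46.95. Set against the d16+10p core, the d16 Dppa5a-high cells were higher in Bbc3 at 0.72 [0.57-0.91], Ccng1 at 0.59 [0.55-0.64], Cdkn1a at 0.56 [0.53-0.60], Phlda3 at 0.46 and Mdm2 at 0.45, and lower in Cdkn2a at -0.35, Trp53 at -0.33, and Bax and Sesn2 at -0.12. The median there was 0.45, beside 0.07 for all genes, and 0 of 9 genes were past 2-fold higher or lower, against 1.65% and 0.678%. Of 33 further targets 31 were above 0, beside 60.3% of all genes (whose median TMM brought to -0.06), with Pmaip1 at 1.66 and Ptp4a3 at 1.23.

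**Figure D3:**
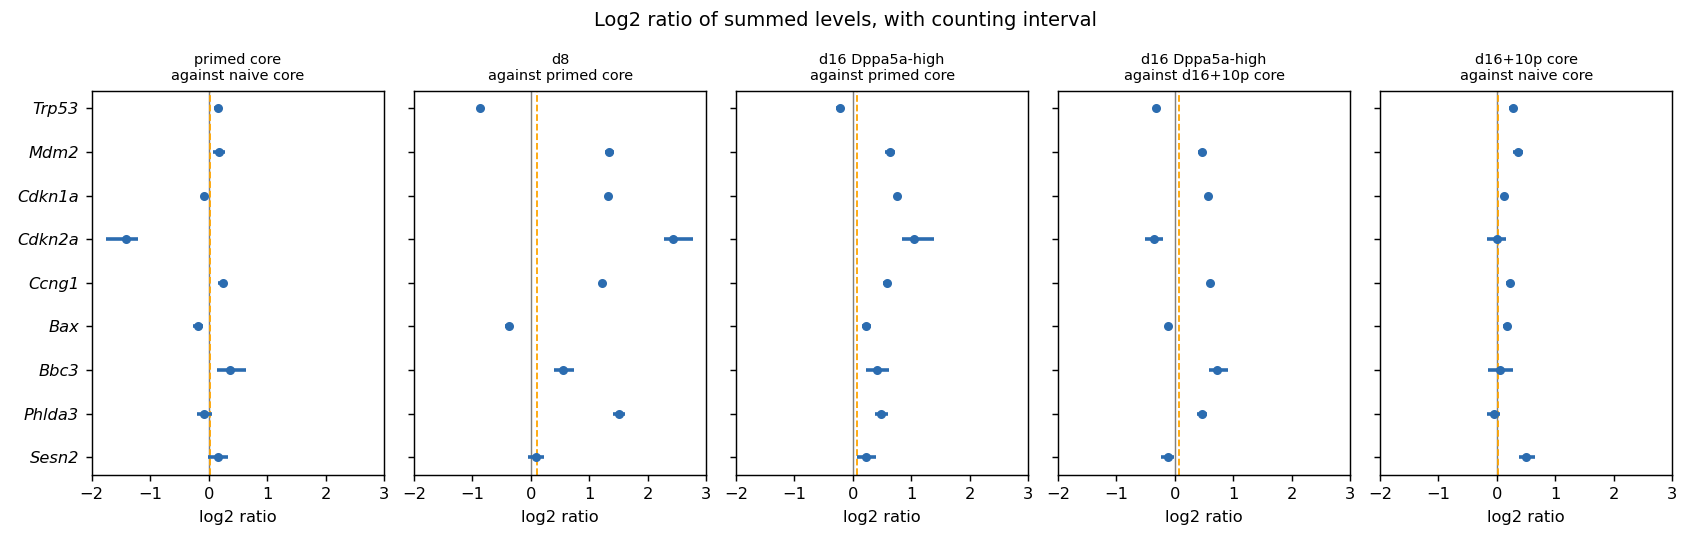
Log2 ratio of summed levels (x axis) for each gene (rows) in 5 comparisons. Points are ratios, bars are 95% counting intervals, grey lines mark 0 and dashed orange lines the median of all genes tested. Mdm2, Cdkn1a, Ccng1 and Phlda3 lie at 1.22 to 1.499 for d8 against the primed core and at -0.06 to 0.35 for d16+10p against naive.

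Across the 15 clusters with at least 100 cells, Mdm2, Cdkn1a, Ccng1 and Phlda3 were ordered alike. Pearson's r of log2 levels was 0.94 for Mdm2 with Ccng1, 0.93 for Mdm2 with Phlda3, 0.96 for Ccng1 with Phlda3 and 0.80 for Mdm2 with Cdkn1a, and without cluster 14 it was 0.94, 0.95, 0.94 and 0.79. For Trp53 with Cdkn1a it was -0.18, and -0.45 without cluster 14. These values describe 15 clusters that share 1 library and its free RNA. The lowest 2 clusters for Mdm2, Cdkn1a, Ccng1 and Phlda3 were naive cluster 11 and primed cluster 12. Pou5f1-high cluster 5, which is mostly d16, was higher than those 2, at 204 CPM for Mdm2, 745 for Cdkn1a and 407 for Ccng1. Cdkn1a was second highest in smooth muscle-like cluster 4, at 1491 CPM. Cdkn2a had its own order, with 175 CPM in cluster 0, led by Olr1, Tfpi2 and Ccl2, and 66.2 in cluster 4, the next. The genes most like Trp53 across the clusters were Crnkl1 (r = 0.96), Eif3g (0.96) and Psmc3 (0.95), those most like Cdkn1a were Plk2 (0.94), Map4k3 (0.93) and Tmbim4 (0.93), and those most like Cdkn2a were Rnf19b (0.90), Irak2 (0.88) and Timp1 (0.86), among 6823 genes.

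**Figure D4:**
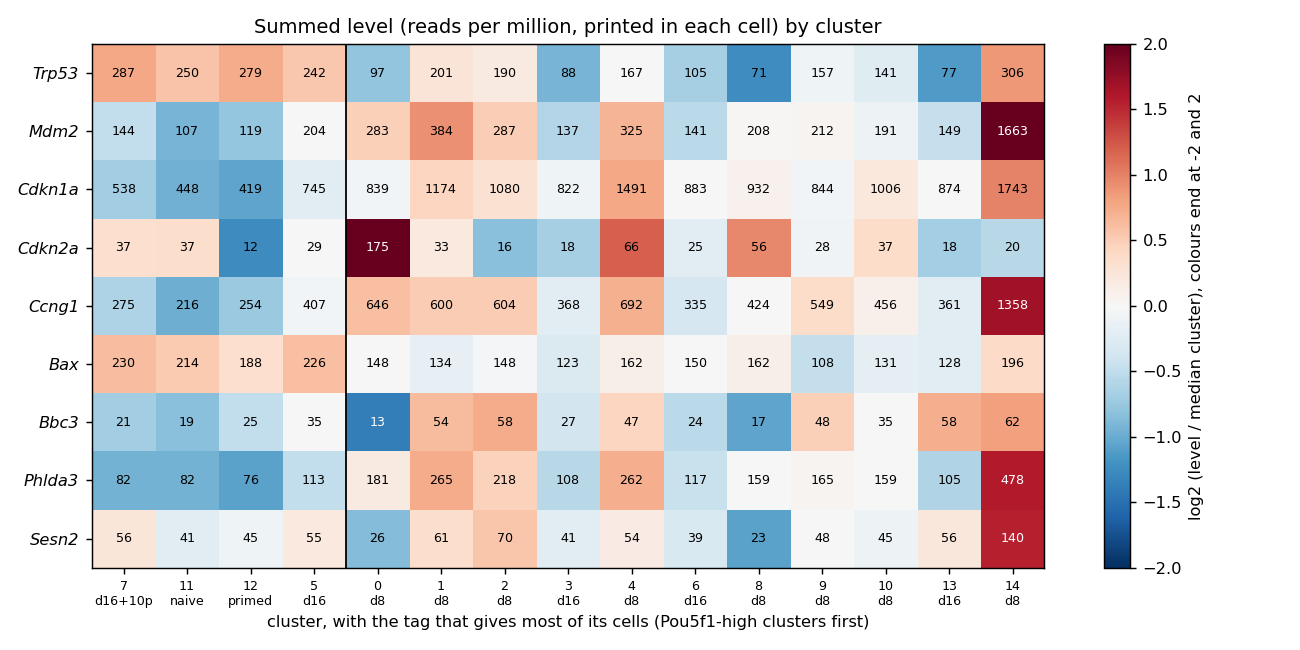
Summed level of each gene (rows) in the 15 clusters of at least 100 cells (columns, with the tag of most of their cells). Printed numbers are CPM and colours are the log2 ratio to the median cluster. The 4 Pou5f1-high clusters are on the left, and cluster 14 on the right is highest for 7 of the 9 genes.

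One small cluster held far more Mdm2 than any other. Cluster 14 had 168 cells, 148 of them d8 and 13 primed, and no cell type name was given to it. Its leading genes were Krt15, Tbx4 and Palm3, and its epithelial markers summed to 3783 CPM beside 6492 in cluster 1. Mdm2 stood at 1663 CPM [1617-1710], 4.34 times the next cluster, and Ccng1 at 1358 [1316-1401], 1.96 times. Phlda3 had 478 CPM [454-504], Sesn2 140 [127-155] and Cdkn1a 1743 [1696-1791], which was 1.17 times the next cluster. Trp53 was at 306 CPM [286-327], 1.07 times the next, and Bbc3 at 61.5. Bax, at 196, and Cdkn2a, at 19.7, were not highest there. All 160 cells with at least 5000 reads had a Cdkn1a read after thinning. The 13 primed cells alone had 1618 CPM of Mdm2 and 1645 of Ccng1, beside 1592 and 1333 in the 148 d8 cells.

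The 9 genes help to form clusters, so these values are a description. When the listed p53 pathway genes, 14 of the 2000 variable genes, were left out of the clustering, 167 of the 168 cells fell together again in a cluster of 173, with Mdm2 at 1632 CPM. All other variable genes were kept, also any that vary with the omitted ones. The omission therefore cannot separate the cluster from the pathway genes. Set against the median of the other 14 clusters, 5 of the 9 genes were past 2-fold higher and 0 lower, where 12.2% of 13825 genes were higher and 5.11% lower. The cluster was the highest of the 15 for 7 of the 9 genes, and for 15.6% of all genes. Of 39 measured further targets 28 were past 2-fold higher and 27 highest there. Perp stood at 946 CPM beside a median of 70.2, Ckap2 at 859 beside 84.1 and Trp53inp1 at 1268 beside 237. Apaf1, which builds the apoptosome, was at 324 beside 53.3. Of 20 regulators of p53, 5 were past 2-fold higher and 0 lower. Among these 5 was Ppm1d, a phosphatase that shuts p53 off, at 98.2 beside 19.5. These names were chosen after their values were seen. Pmaip1, at 10.2 beside 10.3, and Sesn1, at 4.08 beside 7.57, were targets without such a level. The proliferation genes had a median log2 ratio of 0.00.

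In cluster 14 Mdm2 had a log2 ratio of 3.07 to the median of the other clusters, above that of each measured neighbour on chromosome 10. Within 1 megabase of Mdm2, 12 other genes reached 10 CPM in a cluster, and in cluster 14 their median log2 ratio to the other clusters was -0.11, with 0 of 12 past 2-fold higher. Cpm and Slc35e3, the nearest of them on either side, had 11.6 CPM beside 6.36 and 22.1 beside 13.6. Their log2 ratios of 0.77 and 0.66 were the highest of the 12. Single cells with at least 2000 CPM of Mdm2 were 94 of 9627 d8 cells (0.976% [0.790-1.19]), 48 of them in cluster 14, 7 primed, 3 naive, 3 d16+10p and 1 d16 cell.

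**Figure D5:**
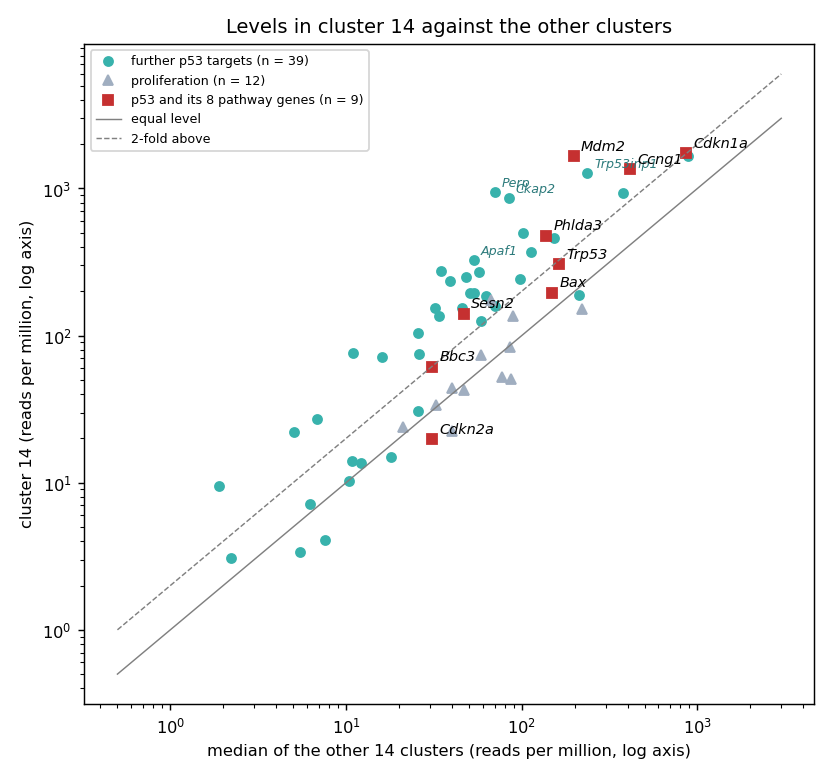
Level in cluster 14 (y axis, CPM, log axis) against the median of the other 14 clusters (x axis, log axis) for the 9 genes (squares), further p53 targets with a level in both (circles) and proliferation genes (triangles). The solid line marks equal levels and the dashed line 2-fold. Mdm2, Perp, Ckap2 and Trp53inp1 lie far above the dashed line, and most proliferation genes lie nearer to the solid line.

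Inside clusters, several targets were also read more in cells that held a Cdkn1a read. Cells thinned to 5000 reads were divided by whether they held a Cdkn1a read, and Mdm2, Ccng1, Bax, Bbc3, Phlda3 and Sesn2 were summed over the remaining reads. The sum was higher in cells with a Cdkn1a read, with the interval of the log2 ratio above 0, in 13 of the 14 clusters where both kinds of cell were present. The exception was naive cluster 11, at 0.01 [-0.17 to 0.20]. For single genes the interval lay above 0 in 12 clusters for Ccng1, 11 for Phlda3, 8 for Mdm2, 5 for Bbc3, 4 for Sesn2 and 0 for Bax. The same division was not made for all genes, so these counts of clusters have no share beside them. Whether they are particular to p53 targets was not tested. In d16 Dppa5a-high cells the 6 genes had 1083 CPM in 1132 cells with a Cdkn1a read and 796 in 106 cells without, a log2 ratio of 0.44 [0.30-0.59]. In the naive core it did not differ beyond counting error [-0.18 to 0.18], in the primed core 0.30 [0.10-0.50] and in the d16+10p core 0.35 [0.20-0.50]. Trp53 showed an interval above 0 in none of these clusters and below 0 in 1. For the summed proliferation genes the interval lay above 0 in 1 and below 0 in 2. Each division rests on reads of 1 gene in cells of different types within a cluster, and the difference between the naive core and the others was not tested.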

How the data were processed

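One cDNA library held all 5 populations. The deposited values are raw counts: the authors trimmed reads with cutadapt 2.10, mapped them with Bowtie2 2.3.4.1 to Ensembl cDNA and ncRNA of GRCm38.p6 and added up reads per gene symbol and cell barcode, with no collapsing by molecular identifier described. Barcodes under the knee of the read curve and cells with unclear tags were removed by the authors as empty or doublets, and no further doublet step was run here. Each cell was given the population of the tag in its column name, and 0 columns were left unused.

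Computed here with Python 3.11.15 and scipy 1.17.1 were summed CPM, ratios with a pseudocount of 1 CPM, and 95% counting intervals. The ratio intervals were run on simulated Poisson counts, the model they assume. That run checks the code and cannot show how often they hold the true value in these reads. Clusters came from Seurat 5.3.0 (R 4.3.3), run on all 17720 cells, without the quality check by which the study left out some, and with its settings: 2000 variable genes, 56 components, 50 neighbours and resolution 0.8. Pou5f1-high clusters were those with 25% or more of the Pou5f1 level in the top cluster and Pou5f1 reads in 75% or more of their cells. Ratios over all genes used those that reached 10 CPM in one of the groups and 30 reads in all, without mitochondrial genes. Named were the 9 genes in every comparison and, from each list, genes among the 3 with the largest ratios past 2-fold in each direction. For Trp53, Cdkn1a and Cdkn2a the 3 genes most alike across clusters were named among those with 50 CPM in a cluster. Gene positions are from GENCODE M21 (GRCm38) and promoter sequences from RefSeq. The genes, lists and alternatives were chosen with earlier results of these data known. Depth ran from 3179 to 111822 reads per cell. Alternatives were the pseudocount, cell filters, means of cells, TMM scaling (edgeR 4.0.16), thinning, the Dppa5a limit and the core. Added after seeing these data were the omission of clusters, the comparison within clusters and the clustering without pathway genes.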

Additional observations from a re-analysis of the deposited data

How the results depend on the processing

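No paired analysis was possible because each population was 1 tagged sample and the tags carry no replicate numbers. Of 97 alternative values for the medians of the 9 genes and the counts past 2-fold, 67 stayed within their limits, 30 moved and 0 reversed a called direction. A reversal could be called only for a main median past 2-fold, and only d8 against the primed core had one, at 1.22. Of 71 alternative medians 70 were above 0, and that of d16 Dppa5a-high against all primed-tagged cells was below, at -0.0077. With all cells of a tag in place of the core, the median log2 ratio was 0.39 for primed against naive, 0.56 for d8 against primed, -0.0077 for d16 Dppa5a-high against primed, 0.0167 for d16+10p against naive and 0.32 for d16 Dppa5a-high against d16+10p. With TMM it was 0.63 for d8 against primed, and 0.36 and 0.32 for d16 Dppa5a-high against the primed and d16+10p cores. After thinning these 3 were 0.50, 0.62 and 0.56, and d16 Dppa5a-high against low was 0.49. As a mean of cells, d8 against primed was 0.42 and d16 Dppa5a-high against d16+10p 0.55. Without clusters 0, 6 and 8, d8 against primed was 0.61, and without clusters 1 and 4 it was 0.48, and 1.11 against the primed core. With a pseudocount of 10, 0 of the 9 genes (1 with 1 CPM) were past 2-fold in d16 Dppa5a-high against the primed core. Counts of all genes past 2-fold moved with the minimum level, given here for 10 CPM, 50 CPM and no minimum: 1107, 353 and 2039 for primed against naive core, 3155, 1236 and 4734 for d16 Dppa5a-high against low, 1162, 378 and 2253 against the primed core, 204, 51 and 404 for d16+10p against naive core, and 237, 62 and 571 for d16 Dppa5a-high against d16+10p. At 50 CPM d8 gave 296 against primed (707 at 10 CPM) and 1059 against the primed core (2325). The cause of these shifts was not tested. With 1 sample per population, no value shows how far separate cultures would differ.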
